A study of Mus musculus with 36 samples.

Results

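C-type lectin receptors around Mincle were followed as 9 genes, Clec4e (Mincle), Clec4d, Clec4n, Clec7a, Clec4a1, Clec4a2, Clec4a3, Clec12a and Clec10a, out of 24421 genes in each library. They were taken by symbol and chosen by measured values, with Clec4e at the centre because of its difference in counts between early and baseline aortic macrophages in these same libraries. That contrast is therefore described without a test for the members, and Clec4e is not tested in any comparison that holds aortic libraries. RNA was sequenced from 3 sorted populations of Apoe ko mice: macrophages from collagenase-digested aorta, monocytes from blood and spleen, and macrophages from peritoneal lavage. Every group, the baseline included, lacks apolipoprotein E, a ligand for lipoprotein clearance, so no wild-type reference enters any comparison. Baseline mice ate chow, early-stage mice had 1 month of high cholesterol diet and advanced-stage mice had 6 months. Each of the 9 groups had 4 libraries, 36 in all, and no age was used here. Whether separate mice gave the 4 libraries is not stated in the labels, and the p-values therefore cover only library-to-library spread, which may be technical.

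C-type lectin receptors bind sugars and lipids on microbes and damaged cells. Mincle and Dectin-2 (Clec4n) signal through the adaptor Fc receptor gamma chain (Fcer1g), and Dectin-1 (Clec7a) through its own tail, to the kinase Syk and the adaptor Card9, which lead to cytokine genes. MCL (Clec4d) pairs with Mincle, while Clec4a2 and Clec12a carry inhibitory tails that recruit phosphatases, and Clec10a is a galactose-binding receptor of macrophages and dendritic cells.

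Clec4e and Clec4d lie side by side on chromosome 6 and rose together in advanced-stage monocytes, so the 250 bases before their annotated starts are shown. The sequences come from RefSeq's annotation of GRCm38.p6, at chr6:123289872-123290121 on the minus strand for Clec4e and chr6:123261857-123262106 on the plus strand for Clec4d. Each is written 5′ to 3′ on its gene's strand, with capitals for matches to motifs of C/EBP (TTGCNNAA), PU.1 (GAGGAA), AP-1 (TGANTCA) and NF-kB (a decamer) on either strand.
Clec4e: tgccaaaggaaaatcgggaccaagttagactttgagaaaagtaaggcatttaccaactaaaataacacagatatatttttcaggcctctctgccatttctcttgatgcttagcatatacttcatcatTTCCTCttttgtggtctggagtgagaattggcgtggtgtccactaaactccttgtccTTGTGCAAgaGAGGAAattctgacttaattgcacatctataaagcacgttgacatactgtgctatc
Clec4d: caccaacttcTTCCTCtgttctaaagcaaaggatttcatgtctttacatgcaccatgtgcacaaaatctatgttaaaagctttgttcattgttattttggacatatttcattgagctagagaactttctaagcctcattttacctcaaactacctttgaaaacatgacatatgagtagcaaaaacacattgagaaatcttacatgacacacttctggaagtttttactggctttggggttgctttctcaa
The Clec4e window holds 1 C/EBP match, from -66 to -59 relative to the start, and PU.1 matches from -123 to -118 and from -56 to -51. The Clec4d window holds 1 PU.1 match, from -240 to -235. Among all 32851 windows of this length, 9.56% hold the C/EBP letters, 23.3% PU.1, 6.75% AP-1 and 4.65% NF-kB, so these matches describe the letters only.

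The members other than Clec10a lie on chromosome 6, and Clec10a lies on chromosome 11. In RefSeq's annotation of GRCm38, Clec4e is at 123281789 to 123289871 and Clec4d at 123262107 to 123275268. Totals of reads counted on genes were 5.28 to 14.8 M in the 12 baseline libraries and 0.943 to 2.63 M in the other 24. Baseline and this depth therefore cannot be told apart. The 8 macrophage and monocyte markers summed to at least 8593 CPM in every library, where CPM is a count scaled to the library's total of counted reads. In earlier results of these data 6 libraries stood apart, replicates 3 and 4 of aortic baseline, 1 of advanced aorta, 3 of advanced monocytes and 1 and 2 of early peritoneum. Values without them were taken for the members only, and those that changed much are given both ways. In a bulk sort, fewer cells of a type and less RNA per cell cannot be told apart.

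Clec4e had no count in any of the 4 aortic baseline libraries, which hold 32.69 M counted reads together. Its early-stage aortic levels were 104, 141, 53.6 and 158 CPM, and its advanced-stage levels were 113, 153, 208 and 169.8 CPM. Every aortic library on the diet lies above every baseline library, while the early and advanced ranges overlap. A floor of 3 counts over the baseline group was set. The early mean of 114.2 ± 46.14 CPM (SD, n = 4) was 1240-fold that floor and the advanced mean of 160.7 ± 39.38 CPM 1750-fold. The floor covers counting error only, so these folds are not a bound on the change in RNA. Clec4e shared this pattern with 6 genes: 7 genes in all had no count in the aortic baseline and a count in each of the other 32 libraries. Their means over the 8 diet-stage aortic libraries ran from 11.28 CPM for Rfesd to 137.4 CPM for Clec4e, with Caap1 next at 29.86 CPM. Zeros were frequent in the aortic baseline: of 5649 genes counted in all 32 other libraries with a mean of at least 20 CPM in diet-stage aorta, 1149 had no count in at least 1 aortic baseline library. The aortic baseline libraries had counts for 7565 to 10163 genes each, against 12330 to 14131 in the monocyte and peritoneal baseline libraries.

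Monocyte levels of Clec4e were 32.1, 60.8, 45.6 and 79 CPM on chow, 60, 43.9, 47.9 and 45.6 CPM in early libraries, and 132, 118, 89.6 and 113 CPM in advanced ones. The advanced libraries lie above all others of this population, and the baseline and early ranges overlap. In the peritoneum Clec4e stayed between 95.8 and 169 CPM over the 12 libraries, with group means of 141.3, 144.6 and 147.9 CPM. Ordered by mean, aorta at the advanced stage came first, then the 3 peritoneal groups, early aorta and advanced monocytes, and each of these overlapped its neighbour. Baseline and early monocytes followed with a gap, and aortic baseline stood last at 0. Over the 36 libraries, Blcap (Pearson r = 0.93 on log2(CPM + 1)), Sntb2 (0.92) and Cgrrf1 (0.91) were the genes most like Clec4e. Blcap was also at 0 in each aortic baseline library, and these libraries weigh on each of the correlations.

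Clec4d was at 21.4, 9.72, 37.3 and 93 CPM in baseline aorta, 37.6, 4.57, 33.9 and 23.5 CPM at the early stage, and 139.8, 92.9, 189 and 172 CPM at the advanced stage. Unlike Clec4e it was present in every aortic baseline library, and its advanced range lies above the early one and touches the highest baseline library. Its monocyte levels were 11.3, 20.5, 11.6 and 18.2 CPM on chow, 22.7, 10.4, 13.9 and 13.3 CPM in early libraries, and 41, 35, 27.3 and 28.3 CPM in advanced libraries, which lie above the others. Peritoneal macrophages had the highest levels, from 224 to 342 CPM on chow, from 258 to 328 CPM in early and from 362 to 589.6 CPM in advanced libraries. Per kilobase of exon, the Clec4e to Clec4d ratio was 1.39 to 2.28 in the 12 monocyte libraries and 0.13 to 0.347 in the 12 peritoneal libraries, which do not overlap. In aorta it was 0 on chow, between 0.832 and 16.2 in early libraries and between 0.424 and 0.863 in advanced ones.

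Clec4n was low outside the diet-stage aorta. Its aortic baseline levels were 24.8, 0, 7.96 and 0 CPM, against 66.1, 38.1, 32 and 64.1 CPM early and 28, 42.5, 63.3 and 66.4 CPM at the advanced stage. Monocytes held 4.76 to 17.6 CPM and peritoneal macrophages 0 to 2.4 CPM, with no overlap between these populations. Clec7a was highest in monocytes, 393 to 629 CPM over 12 libraries. In aorta it was at 121, 175, 90.2 and 103 CPM at baseline, 316, 320.2, 201 and 204 CPM early and 190.1, 355, 248 and 257 CPM at the advanced stage, so both diet stages lie above baseline.

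**Figure D1:**
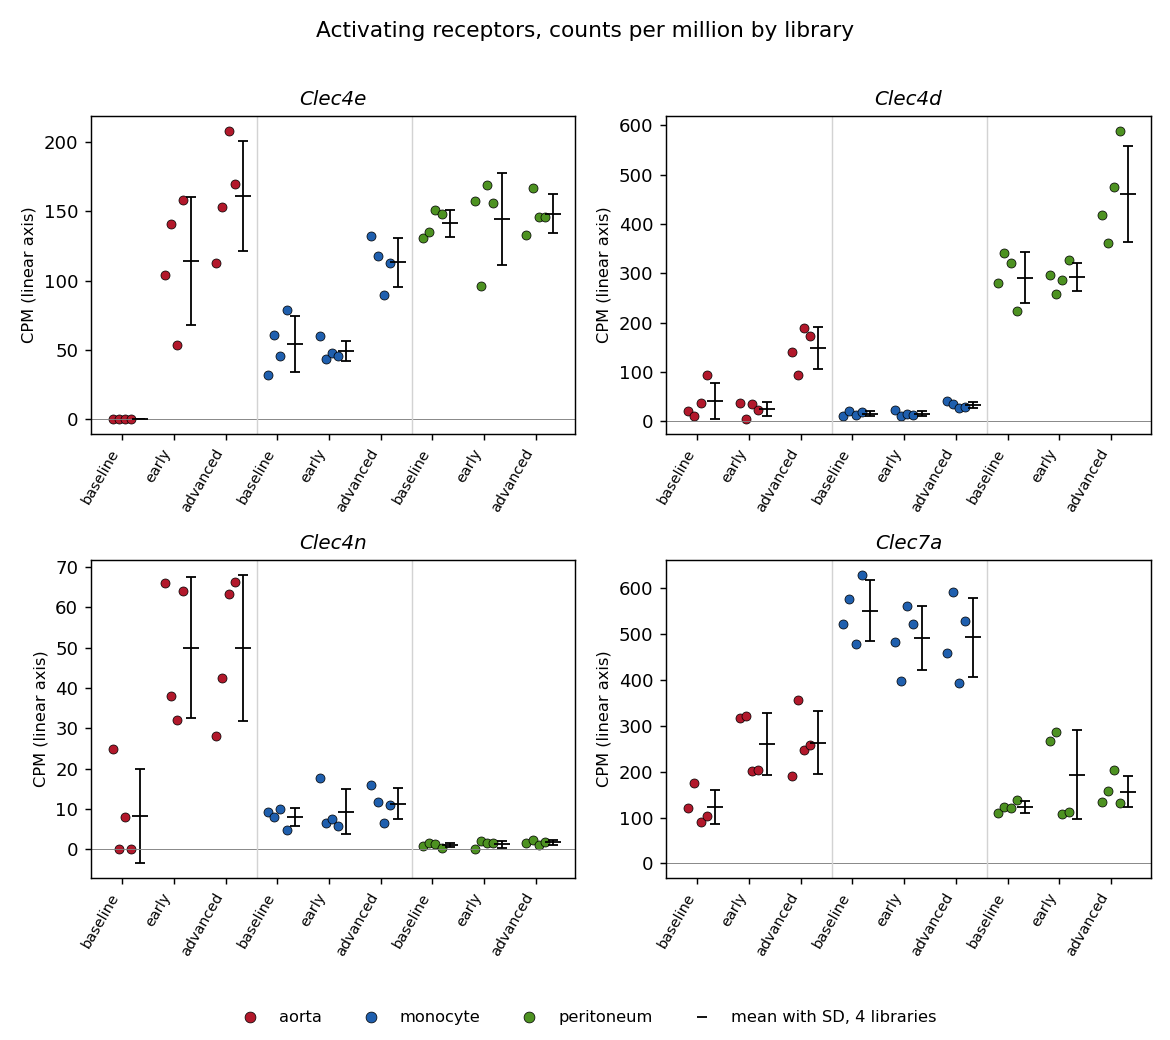
Levels of Clec4e, Clec4d, Clec4n and Clec7a in CPM (linear vertical axes) for each of 9 groups along the horizontal axis; points are libraries, coloured by population, and bars are mean and SD of 4 libraries. Clec4e is at 0 in the 4 aortic baseline libraries and between 53.6 and 208 CPM in the 8 others from aorta.

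None of the 8 members tested passed in the aorta, where 0.585% of 9920 genes passed for advanced against baseline and 0.0403% for advanced against early (edgeR's quasi-likelihood test, Benjamini-Hochberg adjusted p under 0.05). Both comparisons share 4 libraries with the contrast that chose Clec4e. For advanced against baseline, Clec7a differed by 1.23 ± 0.33 (log2 fold change ± SE, adjusted p = 0.105), Clec4d by 1.92 ± 0.75 (adjusted p = 0.362) and Clec4n by 2.78 ± 1.37 (adjusted p = 0.592). At an unadjusted p under 0.05, 3 of the 8 passed here, Clec4d, Clec7a and Clec12a, beside 8.83% of all genes, and Clec4d alone for advanced against early, beside 3.57%. DESeq2 called Clec7a for advanced against baseline and limma-voom called Clec4d for advanced against early, and without the libraries that stood apart edgeR called Clec4d for advanced against baseline. The biological coefficient of variation was 109.7% in aorta, against 19.12% in monocytes and 21.16% in the peritoneum. Summed fibroblast markers in aorta were at 8.895 to 287.1 CPM in baseline libraries, at 482.7 to 1027 CPM after 1 month and at 139.4 to 379.2 CPM after 6 months. Summed dendritic cell markers were at 295.5 to 641.6 CPM in baseline libraries, above the 150.9 to 273 CPM after 1 month and the 74.54 to 238.2 CPM after 6 months. No fibroblast or dendritic cell marker passed singly in the aortic comparisons tested, and the part of these cells in the aortic levels was not tested.

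In monocytes Clec4e and Clec4d rose at the advanced stage. Against baseline, Clec4e rose by 1.09 ± 0.23 (adjusted p = 0.00504) and Clec4d by 1.14 ± 0.26 (adjusted p = 0.0079), 2 of 9 members, beside 19.0% of all 9465 genes. Against the early stage, Clec4e rose by 1.21 ± 0.25 (adjusted p = 0.0212), while Clec4d differed by 1.15 ± 0.29 (adjusted p = 0.0509). In that comparison 2.07% of genes passed, and the call of Clec4e was lost in 5 of 8 fits that left out 1 library, with an adjusted p of up to 0.0828. Those libraries were replicates 2 and 4 of the early group and 1, 2 and 4 of the advanced group. Clec4a1 fell by 0.46 ± 0.13 from baseline to early monocytes (adjusted p = 0.0367), the 1 member of 9 that passed where 10.8% of genes did, and this call was lost in 6 of 8 such fits. Those left out any baseline library or early replicate 1 or 2. In one fit of all 36 libraries, which shares its spread with aorta, no monocyte call was kept (adjusted p = 0.167 and 0.32 for Clec4e, 0.718 for Clec4d).

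Markers of other cells moved with stage in the monocyte sorts. The 10 measured neutrophil markers of 11 summed to 644.6 to 1100 CPM at baseline, 4050 to 14500 CPM at the early stage and 5284 to 40330 CPM at the advanced stage, and none was at 0 in every library. Against baseline, 6 of the 10 rose and 1 fell at the early stage, and 8 rose and 1 fell at the advanced stage. The marker that fell was Csf3r, the receptor of a granulocyte growth factor, with means of 387.3, 251.2 and 237 CPM over the 3 stages. Of 7 dendritic cell markers tested, Flt3, Ccr7, Batf3 and Cd209a fell from baseline to the advanced stage. The dendritic cell markers summed to 133.1 to 284.4 CPM in chow libraries, 231.7 to 474.7 CPM in early ones and 123.1 to 192.5 CPM in advanced ones. Of 7 T, B and NK cell markers tested, 6 rose from baseline to early and 4 fell from early to advanced. Markers of these cells summed to 19.43 to 60.72 CPM in chow libraries, 63.6 to 479.5 CPM in early ones and 22.52 to 30.76 CPM in advanced ones. Clec4e was at 43.9 to 60 CPM in the early libraries. Without advanced replicate 3, the library with the highest neutrophil sum, Clec4e rose by 1.17 against baseline (adjusted p = 0.00838) and Clec4d by 1.21 (adjusted p = 0.0151). The advanced libraries left in that fit had neutrophil sums of 5284 to 14867 CPM, still above every baseline library. The part of these other cells in the Clec4e, Clec4d and Clec4a1 values was not tested.

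In the peritoneum none of the 7 members tested passed in any stage comparison, where 1.88% of 9575 genes passed for early against baseline, 0.898% for advanced against baseline and 1.32% for advanced against early. Clec4n and Clec4a2 were below the filter on low counts. Clec4d came nearest for advanced against baseline, with 0.76 ± 0.18 (adjusted p = 0.0543), and its 4 advanced libraries lie above the 8 others. At an unadjusted p under 0.05, Clec7a, Clec4a3, Clec12a and Clec10a passed for early against baseline, beside 21.1% of genes. Clec4d passed so for advanced against baseline, beside 15.4%, and Clec4d, Clec4a1, Clec4a3 and Clec12a for advanced against early, beside 19.4%. In early libraries 3 and 4, Clec7a, Clec4a3, Clec12a and Clec10a lay within or below their baseline ranges. Their early differences rest on early libraries 1 and 2. Clec4a1 and Clec4a3 in early libraries 3 and 4 lay below every advanced library, so their falls rest on early libraries 1 and 2 too. Clec12a was at 88.4 and 32.8 CPM in those, against 4.57 and 2.65 CPM in 3 and 4. DESeq2 called Clec4d in both advanced comparisons and Clec12a against early, and limma-voom called Clec4d and Clec7a for advanced against baseline.

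The Clec4a genes and Clec12a were mainly genes of monocytes and aortic macrophages. Clec4a1, a gene of the Clec4a cluster, spanned 265 to 570.4 CPM in monocytes, 137 to 417 CPM in aorta and 22.9 to 138 CPM in the peritoneum. Clec4a3, its neighbour, spanned 312 to 643, 107 to 319 and 27 to 123 CPM in the same order, and the genes followed each other over the 36 libraries (Pearson r = 0.96 on log2(CPM + 1)). Clec4a2 spanned 63.3 to 249.7 CPM in aorta and 57.6 to 175 CPM in monocytes. Of its 50-base words 3.85% are shared with Clec4a4 and 2.30% with Clec4b1, so a small part of its reads is uncertain. Clec12a spanned 91.4 to 312 CPM in aorta and 230.3 to 325 CPM in monocytes. Clec10a was at 276 to 506 CPM in aorta, 12.4 to 29.9 CPM in monocytes and 17.9 to 115 CPM in the peritoneum. Its nearest gene was Mgl2 (Pearson r = 0.97), its close copy, with which it shares 8.49% of its 50-base words.

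**Figure D2:**
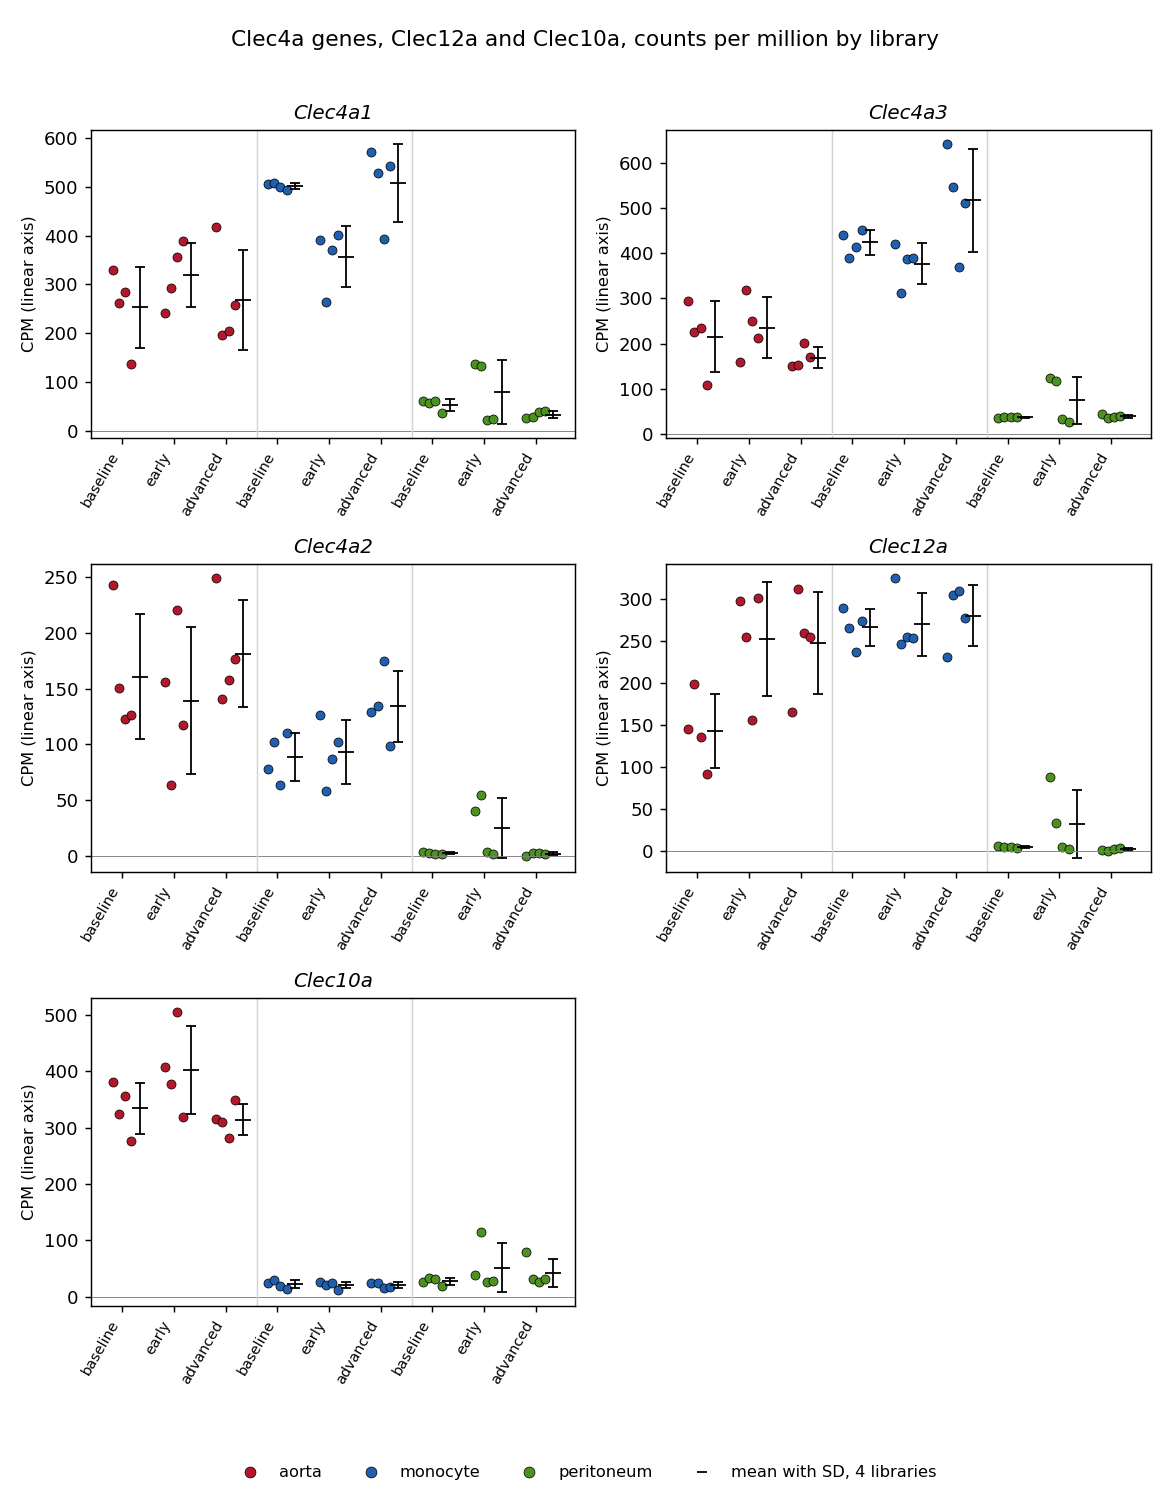
Levels of Clec4a1, Clec4a3, Clec4a2, Clec12a and Clec10a in CPM (linear vertical axes) in the same 9 groups; points are libraries and bars are mean and SD of 4 libraries. Clec10a is between 276 and 506 CPM in aorta and at or below 115 CPM elsewhere.

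Early peritoneal libraries 1 and 2 had higher Clec12a, Clec4a2, Clec4a1, Clec4a3 and Clec7a than the other peritoneal libraries. Clec4a1 was at 138 and 134 CPM in them, against at most 61.1 CPM in the rest. Clec4a3 was at 123 and 116 CPM against at most 43.7 CPM, and Clec7a at 266 and 287 CPM against at most 203 CPM. Clec4e, Clec4d and Clec10a were not higher in both, and Clec4n was at 0 and 1.95 CPM in them, against up to 2.4 CPM in the rest. Clec12a was at 88.4 and 32.8 CPM there against 4.57 and 2.65 CPM in the other early libraries, 3.21 to 6.51 CPM at baseline and 0 to 4.07 CPM at the advanced stage. Clec4a2 was at 39.8 and 54.7 CPM against 3.05 and 1.59 CPM, with 1.27 to 3.13 CPM at baseline. The same 2 libraries had 7 monocyte markers summing to 1143 and 1472 CPM, against 153.6 to 214.8 CPM in the other 10, and Ccr2 at 897 and 1311 CPM. The 7 large peritoneal macrophage markers summed to 10458 and 5931 CPM there, against at least 14600 CPM in the other 10. Dendritic cell markers summed to 179 and 554 CPM there, and the part of these cells in the levels was not tested.

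**Figure D3:**
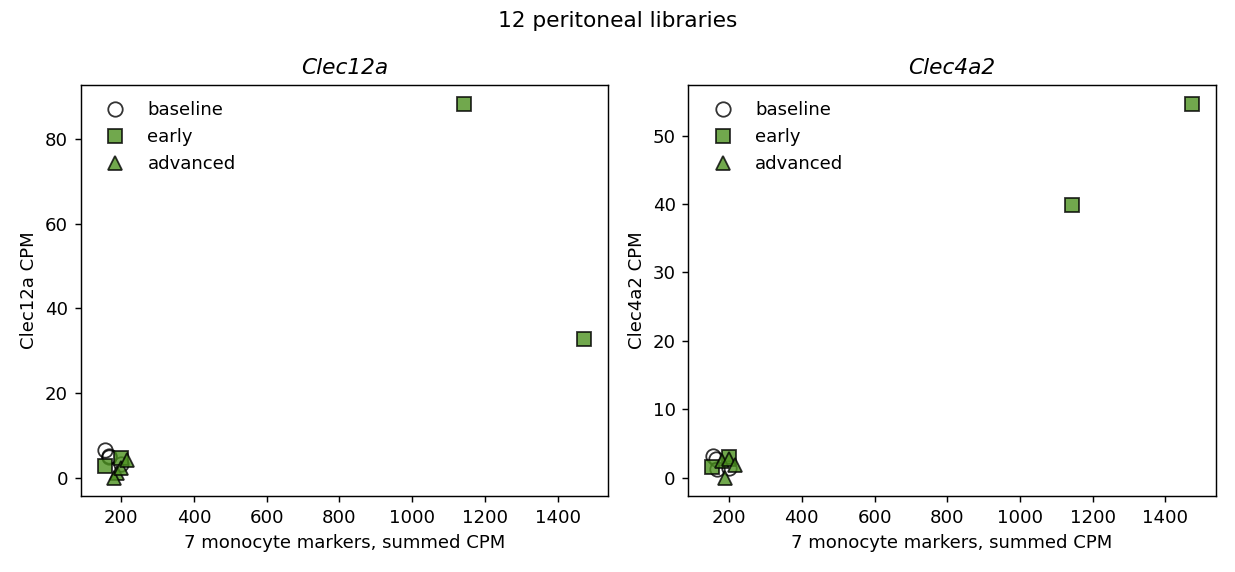
Clec12a and Clec4a2 in CPM (vertical axes) against the summed CPM of 7 monocyte markers (horizontal axes) in the 12 peritoneal libraries, with symbols for stage. Early libraries 1 and 2 sit apart at 1143 and 1472 CPM of markers.

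Whether the diet response differed between peritoneal macrophages and monocytes was tested as an interaction. Of the 7 members kept by the filter in each population alone, Clec12a passed, 1 of 7 beside 2.78% of 10343 genes from baseline to early and 1 of 7 beside 1.25% from early to advanced. In the peritoneum the filter kept Clec12a only with early libraries 1 and 2, where it is high. Its values and this count of 1 of 7 are therefore given as a description. The fitted difference for Clec12a, peritoneum minus monocytes, was 2.75 ± 0.64 from baseline to early (adjusted p = 0.0202). From early to advanced it was -4.06 ± 0.90 (adjusted p = 0.0283). Both comparisons share the early libraries. Clec4a2 is below the peritoneal filter and entered this fit through its monocyte level. Its values were 3.56 ± 0.71 (adjusted p = 0.00831) and -4.39 ± 0.94 (adjusted p = 0.0240), and they are also given as a description. Without the libraries that stood apart, Clec12a differed by -0.38 (adjusted p = 0.847) and -0.83 (adjusted p = 0.724), and Clec4a2 by 0.12 (adjusted p = 0.985) and -0.75 (adjusted p = 0.871). All 4 passed thresholds were also lost with limma-voom. For Clec4e the difference from early to advanced was -1.15 ± 0.32 (adjusted p = 0.0745).

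Averaged over the stages, the 7 members kept by the filter in each population alone differed between peritoneal macrophages and monocytes, where 67.0% of all genes did. Clec4d was higher in the peritoneum by 4.32 ± 0.14 (adjusted p = 3.11e-18), Clec4e by 1.31 ± 0.13 (adjusted p = 2.81e-09) and Clec10a by 1.12 ± 0.23. Clec12a (-5.11 ± 0.32), Clec4a3 (-3.00 ± 0.17), Clec4a1 (-2.90 ± 0.21) and Clec7a (-1.53 ± 0.13) were lower there. Clec4a2 and Clec4n passed the joint filter through monocytes, where they are higher, so their values of -4.30 and -2.65 describe a difference that the filter favours. Clec12a was kept in the peritoneum alone only with early libraries 1 and 2. Without the libraries that stood apart, the value was -6.10 for Clec12a and -5.36 for Clec4a2.

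Against the peritoneum, 5 of the 6 members other than Clec4e kept in each population alone differed in aorta, beside 26.8% of 10698 genes. Clec12a (4.87 ± 0.42), Clec10a (3.10 ± 0.22), Clec4a1 (2.34 ± 0.25) and Clec4a3 (2.03 ± 0.21) were higher in aorta, and Clec4d was lower (-2.72 ± 0.30). Clec7a differed by 0.32 ± 0.17 (adjusted p = 0.177). Clec4a2 at 5.07 and Clec4n at 4.29 passed the joint filter through aorta and are given as a description. Clec12a was kept in the peritoneum alone only with early libraries 1 and 2. Without the libraries that stood apart, the value was 5.98 for Clec12a and 6.17 for Clec4a2, and with limma-voom it was 3.18 for Clec4n.

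Against monocytes, 6 of the 8 members other than Clec4e differed in aorta, beside 29.7% of 10696 genes. Clec10a (4.09 ± 0.16), Clec4d (1.46 ± 0.35) and Clec4a2 (0.63 ± 0.20) were higher in aorta, and Clec7a (-1.32 ± 0.14), Clec4a3 (-1.09 ± 0.14) and Clec4a1 (-0.69 ± 0.14) were lower. The call of Clec4a2 was lost with limma-voom and one weight per population (adjusted p = 0.172), in one fit of all 36 libraries (adjusted p = 0.0725) and over the early and advanced stages alone (adjusted p = 0.116).

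The aortic values of Clec4e hold the counts it was chosen for and are a description. Averaged over 3 stages with the baseline zeros, the fitted difference was -3.04 against monocytes and -4.23 against the peritoneum, and over the early and advanced stages alone it was 0.93 and -0.15.

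**Figure D4:**
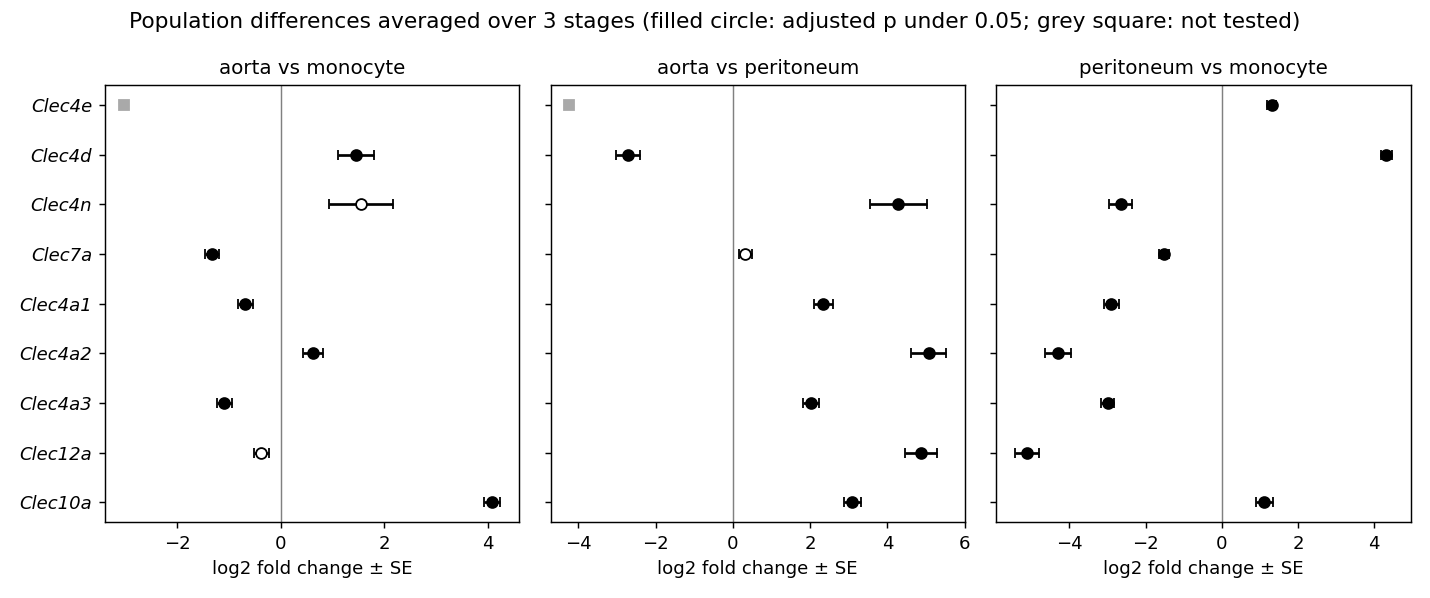
Log2 fold changes ± SE (horizontal axes) of the 9 members for 3 population comparisons averaged over the stages; filled circles have an adjusted p under 0.05, open circles do not, and grey squares mark Clec4e beside aorta, which was not tested. Clec4a2 and Clec4n are a description in both comparisons with the peritoneum, because they passed the joint filter through the other population. Clec4d has the largest positive value for peritoneum against monocytes, 4.32.

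Of 12 adaptors and kinases of these receptors, none passed in any aortic or peritoneal stage comparison tested here. In monocytes 1 of 12 passed at the early stage, beside 10.8% of all genes, and 2 of 12 at the advanced stage, beside 19.0%, both against baseline. Prkcd, a kinase upstream of Card9, fell by 0.37 ± 0.11 at the early stage (adjusted p = 0.0471) and by 0.47 ± 0.11 at the advanced stage (adjusted p = 0.0104). Plcg2, a phospholipase downstream of Syk, fell by 0.36 ± 0.09 at the advanced stage (adjusted p = 0.0151). Inpp5d, the phosphatase SHIP1 and 1 of 3 inhibitory phosphatases listed, fell by 0.42 ± 0.09 at the early stage (adjusted p = 0.0111) and by 0.40 ± 0.10 at the advanced stage (adjusted p = 0.0102). Sap130, a nuclear protein of dying cells that Mincle binds, fell by 0.54 ± 0.14 at the early stage (adjusted p = 0.0255), 1 of 5 regulators and ligand listed. Across populations, 11 of 12 adaptors and kinases were lower in peritoneal macrophages than in monocytes, where 67.0% of all genes passed in either direction. Their median was -0.90 against -0.02 for all genes.

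Inflammatory genes that lectin signalling can induce had a median log2 fold change of 3.12 for advanced against baseline aorta, against -0.04 for all genes. The gene lists were chosen with earlier results of these data known, so counts of their genes are a description. For advanced against baseline aorta, 4 of 7 tested passed as higher, beside 0.585% of 9920 genes passing in either direction. These were Cxcl2 (3.28 ± 0.32, adjusted p = 1.14e-05) and Cxcl1 (4.19 ± 0.68, adjusted p = 0.00404), neutrophil-attracting chemokines, Il10 (8.79 ± 1.29, adjusted p = 0.00141) and Il1b (2.66 ± 0.56, adjusted p = 0.0263). Cxcl2 was at 356, 344, 179.6 and 536 CPM in baseline aorta and at 2166, 3444, 3480 and 3803 CPM at the advanced stage, without overlap. From early to advanced aorta, 0 of 7 passed, beside 0.0403% of all genes. In monocytes none of the 4 tested passed in any stage comparison. Of 3 tested in the peritoneum, Cxcl1 rose by 3.26 ± 0.65 from baseline to early (adjusted p = 0.0298), beside 1.88% of all genes passing. From early to advanced Cxcl1 (-3.79 ± 0.77, adjusted p = 0.0355) and Cxcl2 (-3.90 ± 0.85, adjusted p = 0.0434) fell, beside 1.32%. Both comparisons hold early peritoneal libraries 1 and 2, and values of Cxcl1 and Cxcl2 without them were not taken. Of 28 other C-type lectin receptors, Clec5a, a Syk-coupled receptor of myeloid cells, rose by 1.48 ± 0.29 in advanced monocytes (adjusted p = 0.00277), and Ly75 rose and Cd209a fell there, 3 of 13 tested beside 19.0% of all genes.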

How the data were processed

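The authors deposited a file of whole-number read counts by gene for each library, and per the submitters' processing notes the tools were STAR and featureCounts with assembly mm10, and versions, settings and use of strand were not given in the sources used here. Groups came from the titles. The members and gene lists were chosen with earlier results of these data known. Stages were compared in a fit of each population's 12 libraries, and populations and responses in fits of 24, with edgeR (4.0.16, R 4.3.3), its quasi-likelihood test, TMM, filterByExpr, and a two-sided Benjamini-Hochberg adjusted p under 0.05 over all genes tested. Standard errors were derived from the size of the log2 fold change and its F statistic. CPM are counts over the library total. Lengths are exons of GENCODE transcripts linked to RefSeq. Promoters of 7 of 9 members were in the RefSeq table, and Clec4n and Clec10a were not matched. Named genes were the members, up to 4 passing genes of each list by smallest p, and the genes most like a member by Pearson r. Counts carry no molecular identifiers, so the floor of 3 counts covers counting error only. Alternatives were DESeq2 (1.42.0), limma-voom (limma 3.58.1), RLE size factors, an unfiltered fit, a replicate block, thinned counts, one fit of all libraries, no Rn45s, and each library left out. The fits were tested on simulated data.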

Additional observations from a re-analysis of the deposited data

Results flagged for a closer look

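In 5 of 81 groups of 4 libraries, 1 library stood apart from the other 3 by more than Dixon's 95% limit, and chance alone flags about 1 in 20 groups. Clec4n was at 17.63 CPM and Clec12a at 325.4 CPM in early monocyte library 1, against at most 7.556 and 254.4 CPM in the others. Clec4a1 was at 36.19 CPM in baseline peritoneal library 4, against at least 57.82 CPM. Clec10a was at 115.3 CPM in early peritoneal library 2 and at 78.68 CPM in advanced peritoneal library 1, against at most 38.85 and 31.81 CPM.

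The early response differed between peritoneal macrophages and monocytes by 3.56 for Clec4a2 and 2.75 for Clec12a (log2, edgeR interaction), and the response from early to advanced by -4.39 and -4.06. Clec4a2 is below the peritoneal filter on low counts, and Clec12a passed it only with early peritoneal libraries 1 and 2, so these values are a description. Without the libraries that stood apart, they were 0.12 and -0.75 for Clec4a2 and -0.38 and -0.83 for Clec12a, none with an adjusted p under 0.05. The part of the monocyte and dendritic cell markers in early peritoneal libraries 1 and 2 was not tested.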

How the results depend on the processing

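The counts of members called, each from the alternative named, moved as follows, and the cause was not tested except where stated. For monocytes, advanced against early (1 called), RLE size factors gave 3, no filter 3, DESeq2 4, no Rn45s 2 and leaving out the libraries that stood apart 3. For aorta, advanced against baseline (0), DESeq2 gave 1, thinning 1, one fit of all 36 libraries 3 and leaving out the libraries that stood apart 1, and against early (0) limma-voom and the fit of all 36 gave 1 each. For the peritoneum (0 in each), no filter gave 2 for early against baseline and 3 for advanced against early, DESeq2 2 for advanced against early, and the fit of all 36 gave 2 and 2. For its advanced against baseline comparison DESeq2 gave 1, limma-voom 2 and leaving out the libraries that stood apart 1. For the early response (2), DESeq2 gave 1, and limma-voom with either weighting, thinning, the fit of all 36 and leaving out the libraries that stood apart gave 0. For the later response (2), DESeq2 gave 5, limma-voom 1, and one weight per population and leaving out the libraries that stood apart 0. The fit of all 36 gave 0 in each monocyte comparison, and thinning gave 0 for early against baseline. Direction changed for Clec12a in the early response without the libraries that stood apart (-0.38) and for Clec4e in aorta against monocytes over the early and advanced stages (0.93, a description).

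Thinning to the shallowest library was run in 2 ways, and the way was changed after the results of both had been seen. The first, edgeR's thinCounts with a target size, raised the biological coefficient of variation of monocytes from 19.12% to 36.66%, against 15.97% with binomial draws, and on counts of known variance it added variance that thinning should not, so binomial draws replaced it. With the first way Clec4e in advanced against early monocytes had an adjusted p of 0.519, no member was called in any monocyte comparison or response (0 in each), and 1 gene of all passed in that comparison. With binomial draws the Clec4e and Clec4d monocyte calls were kept.

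Leaving out each library gave 0 to 1 members called for aorta advanced against baseline and 0 for advanced against early, 0 to 1, 2 to 3 and 0 to 3 for monocytes (early against baseline, advanced against baseline, advanced against early), 0 to 2, 0 to 1 and 0 to 3 for the peritoneum, 7 to 8, 8 and 9 for the populations (Clec4e and members below 1 population's filter counted), and 0 to 5 and 0 to 4 for the responses. With the replicate number as a block, the members called were unchanged in number: 1, 2 and 1 in monocytes and 2 in each response. Between populations the counts were 7, 8 and 9, again with Clec4e, a description beside aorta, and members below 1 population's filter counted. The numbers share no stated origin: deviations of same-numbered libraries correlated from -0.28 to 0.23, and 27 of 72 correlated best with their own number, where 18 are expected by chance. In 1 of 18 pairs of groups, monocyte and peritoneal baseline, each same-numbered correlation was over 0.1 (0.133 to 0.227) and each of the 4 was best with its own number, a hint from the data and not the design.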
